A study of Mus musculus with 12 samples.

Results

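The breakdown of the branched-chain amino acids leucine, isoleucine and valine was followed through 10 genes, Bcat1, Bcat2, Bckdha, Bckdhb, Dbt, Bckdk, Mccc1, Mccc2, Pcca and Pccb. They were chosen by name, with earlier results of these data known, as were the gene lists used below. Each of the 10 genes was read from its single probe set that is annotated to exactly 1 gene. All 10 were found among the 19938 genes measured. Fibroblasts from C57BL6 mouse embryos of embryonic day 14 were profiled on 12 single-colour arrays, 3 samples in each of 4 groups. WT undifferentiated and D1D2KO undifferentiated cells were grown in DMEM with 10% serum. D1D2KO cells lack the diacylglycerol acyltransferases DGAT1 and DGAT2, which make triacylglycerol from diacylglycerol. WT differentiated and D1D2KO differentiated cells were taken 2 days past confluence through 1 µM dexamethasone, 500 µM isobutylmethylxanthine, 5 µg/ml insulin and 15 µM troglitazone for 2 to 3 days. They then had insulin and troglitazone at those doses for 2 days, and afterwards only medium with serum, for a length of time not given in the sources used here. Both genotypes were therefore exposed to a PPARγ agonist, a glucocorticoid and insulin, and the labels do not say from which embryo or culture each replicate came. If the samples of a group were not separate cultures, the p-values below measure technical spread only.

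Branched-chain amino acids are broken down in mitochondria in 3 stages. A branched-chain aminotransferase first moves the amino group to 2-oxoglutarate. Bcat2 encodes the mitochondrial enzyme, the common form in most tissues, and Bcat1 the cytosolic one, found in brain and in many dividing cells. The branched-chain ketoacid dehydrogenase complex then removes the carboxyl group irreversibly. Its decarboxylase subunits are encoded by Bckdha and Bckdhb and its acyltransferase core by Dbt, and the kinase encoded by Bckdk switches it off by phosphorylating the Bckdha product. Separate routes follow for the 3 ketoacids, with biotin-dependent methylcrotonyl-CoA carboxylase (Mccc1 and Mccc2) on the leucine route and propionyl-CoA carboxylase (Pcca and Pccb) on the isoleucine and valine routes. The pathway is known to be active in mature adipocytes, where its carbon feeds the citric acid cycle and fatty acid synthesis.

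The 250 bases before the listed start sites were read for the 9 of 10 genes that the RefSeq promoter table (GRCm38.p6) holds, 13 windows in all. A single window per gene is shown. Bcat1 and Bcat2 were picked because these genes encode the same reaction and moved in opposite directions. Bckdhb and Pcca were picked because the window before the upstream of their 2 listed starts holds the nuclear receptor half-site AGGTCA. These are the letters bound by PPAR and retinoid receptors. The Bcat1 window shown, before the downstream of its 2 listed starts, is the one that holds AGGTCA. The sequences shown therefore hold the half-site more often than the windows in all, of which 3 of 13 held it. Capitals mark AGGTCA, or TGACCT where it lies on the other strand, and each sequence reads 5′ to 3′ on the gene's strand.
Bcat1 (chr6:145048813-145049062, minus strand, the downstream of its 2 listed starts): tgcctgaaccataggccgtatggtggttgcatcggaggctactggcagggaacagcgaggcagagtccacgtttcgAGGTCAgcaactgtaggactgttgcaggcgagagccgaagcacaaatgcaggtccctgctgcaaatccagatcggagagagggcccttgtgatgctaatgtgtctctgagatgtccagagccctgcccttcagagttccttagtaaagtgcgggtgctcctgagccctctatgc
Bcat2 (chr7:45569903-45570152, plus strand, the upstream of its 2 listed starts): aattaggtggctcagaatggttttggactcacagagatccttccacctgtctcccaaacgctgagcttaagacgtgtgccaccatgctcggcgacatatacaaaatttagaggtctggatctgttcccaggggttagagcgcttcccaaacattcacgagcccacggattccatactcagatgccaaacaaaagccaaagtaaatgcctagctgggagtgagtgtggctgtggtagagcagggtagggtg
Bckdhb (chr9:83924887-83925136, plus strand): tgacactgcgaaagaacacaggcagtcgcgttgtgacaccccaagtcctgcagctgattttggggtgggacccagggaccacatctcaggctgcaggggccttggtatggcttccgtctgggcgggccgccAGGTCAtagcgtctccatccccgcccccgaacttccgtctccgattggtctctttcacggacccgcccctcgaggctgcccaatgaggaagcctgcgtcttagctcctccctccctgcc
Pcca (chr14:122484115-122484364, plus strand): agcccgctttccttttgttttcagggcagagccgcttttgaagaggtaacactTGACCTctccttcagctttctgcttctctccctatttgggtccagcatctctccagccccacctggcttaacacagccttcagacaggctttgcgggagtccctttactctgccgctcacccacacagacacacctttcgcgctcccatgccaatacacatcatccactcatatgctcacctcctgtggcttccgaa

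AGGTCA was found 174 bases before the downstream start of Bcat1. It lay 119 bases before the upstream start of Bckdhb and 197 before that of Pcca, the last on the opposite strand. The other listed window of each of these 3 genes did not hold it. In all, 3 of the 13 windows held it, while 14% of 32851 windows in the table did. Searched on both strands in the same way, the E-box CACGTG was in 1 of the 13 windows, that of Mccc2, 9 bases before its start, and in 6.02% of all windows. TTGCNNAA, a form of the C/EBP site, was in 0 of the 13 and in 9.56% of all. CACCC, the core of the boxes that Klf factors bind, was in 8 of the 13 and in 52.0% of all, and CCAAT was in 7 of the 13 and in 33.8% of all. None of the 5 motifs contains another, though matches can overlap in position. These letter matches are descriptions of the windows, and the half-site was found before a gene that fell (Bcat1) as well as before genes that rose.

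Signals are given on the log2 scale, so a difference of 1 is a doubling. Array medians lay between 5.61 and 5.69, samples of 1 group correlated at 0.993 to 0.997, and every member value, the lowest being 6.37, exceeded the median gene of any array, at most 6.06. The targeted genes read lower in D1D2KO. In undifferentiated cells the differences were -1.34 for Dgat1 (adjusted p = 6.98e-07 in limma's test) and -0.47 for Dgat2 (adjusted p = 0.0345). The Dgat2 call there, at low signals of 5.44 to 5.98, ended in 7 of 22 alternative settings. Dgat1 was at 38.2% and Dgat2 at 31.4% of the WT signal in differentiated cells, so both transcripts still gave signal, and which exons the probes cover was not examined. Adipocyte markers (10 genes, among them Adipoq, Plin1 and Fabp4) rose in both genotypes on differentiation, 10 of 10. The log2 of their summed signal was 10.56 to 10.68 in undifferentiated and 14.25 to 14.73 in differentiated samples. Fibroblast markers fell, 8 of 10 in WT and 9 of 10 in D1D2KO, as did macrophage markers, 9 of 10 in each genotype. Cell cycle genes fell too, 8 of 9 in WT and 9 of 9 in D1D2KO (medians -0.46 and -0.48). Neural markers fell for 6 of 8 in each genotype, and 0 genes of these lists rose. By the call defined below, 14.7% of all genes rose and 19.4% fell in WT, and 15.4% rose and 21.2% fell in D1D2KO. In such bulk samples, a change in the share of cells of a type and a change in RNA per cell cannot be told apart.

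**Figure D1:**
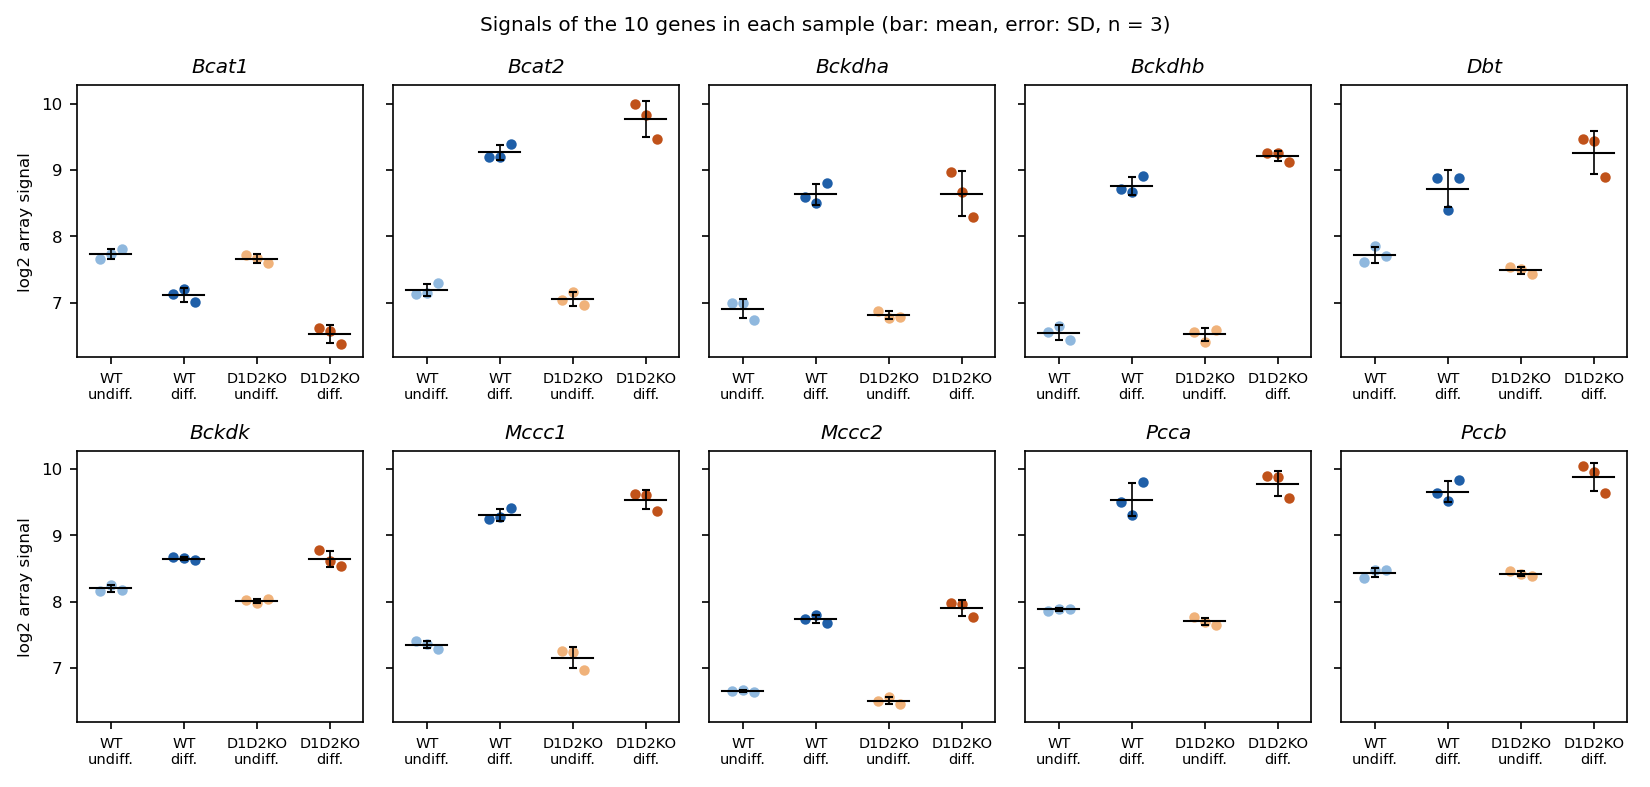
Log2 array signal of the 10 genes (vertical axis, shared) in every sample of the 4 groups (horizontal axis), with the mean and SD of 3 samples. Differentiated samples lie above undifferentiated ones for 9 genes and below them for Bcat1.

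The first comparison asked how the pathway changed as WT fibroblasts became adipocytes. All 10 genes were called, 9 higher and 1 lower, where a call is an adjusted p under 0.05 in limma's moderated test with Benjamini-Hochberg adjustment over 19938 genes. Over all genes 34.1% were called, 14.7% higher and 19.4% lower. The samples of the 2 states did not overlap for any of the 10, against 43.9% of all genes. Rises ran from 1.36-fold for the kinase gene Bckdk to 4.65-fold for Bckdhb, and Bcat1 fell. The median difference of the 10 was 1.44 on the log2 scale, against 0.02 over all genes.

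The aminotransferase genes moved in opposite directions. Bcat2 read 7.13, 7.14 and 7.29 (log2 signal) in WT undifferentiated samples and 9.20, 9.20 and 9.39 in WT differentiated samples. Every differentiated sample was therefore well above every undifferentiated one, a log2 difference of 2.08 ± 0.11 (SE, n = 3 per group; adjusted p = 3.35e-10) or 4.22-fold. Bcat1 read 7.66, 7.73 and 7.81 in WT undifferentiated and 7.13, 7.21 and 7.01 in WT differentiated samples. Here the differentiated samples were the low ones, by -0.62 ± 0.088 (SE, n = 3; adjusted p = 2.91e-05), which leaves 65.3% of the undifferentiated signal. Levels of different probe sets are not compared, so these values do not say which of the 2 enzymes had more transcript.

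The 3 subunit genes of the ketoacid dehydrogenase complex among the 10 rose by unequal amounts, and Dld, its dehydrogenase subunit gene outside the 10, rose by 1.30 (adjusted p = 1.01e-07). Bckdhb, the decarboxylase beta subunit, went from 6.56, 6.65 and 6.43 to 8.71, 8.66 and 8.91, a log2 difference of 2.22 ± 0.092 (SE, n = 3; adjusted p = 7.93e-12). Bckdha, its alpha partner, went from 6.99, 6.99 and 6.74 to 8.59, 8.50 and 8.80, a 3.30-fold rise (adjusted p = 2.57e-08). Dbt, the acyltransferase core, went from 7.61, 7.85 and 7.70 to 8.88, 8.40 and 8.88, a 2.00-fold rise (adjusted p = 3.34e-05). The WT differentiated replicate 2 was the low one for Dbt, which had the widest spread of the 10 in that group (SD 0.28). Bckdk, the inhibitory kinase, went from 8.16, 8.25 and 8.18 to 8.67, 8.65 and 8.62, with samples that scarcely varied within a state. Its rise of 0.45 ± 0.079 (SE, n = 3; adjusted p = 0.000248) was the smallest of the 9.

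The carboxylase genes of the later steps rose as well. Mccc1, the biotin-carrying subunit of methylcrotonyl-CoA carboxylase, went from 7.40, 7.36 and 7.29 to 9.24, 9.28 and 9.41, a 3.89-fold rise (adjusted p = 7.64e-11). Mccc2, its partner, went from 6.65, 6.66 and 6.63 to 7.74, 7.80 and 7.68, a 2.13-fold rise (adjusted p = 1.26e-08). These are tight groups whose states lie far apart. Pcca, the biotin-carrying subunit of propionyl-CoA carboxylase, went from 7.86, 7.89 and 7.89 to 9.50, 9.31 and 9.80, a 3.16-fold rise (adjusted p = 4.68e-09). Pccb, its partner, went from 8.36, 8.48 and 8.47 to 9.63, 9.51 and 9.83, a 2.33-fold rise (adjusted p = 7.67e-08). In both carboxylases the biotin-carrying subunit had the larger rise, though the difference between subunits was not tested.

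D1D2KO cells were compared in the same way to ask whether the pathway changes when DGAT1 and DGAT2 are lacking. All 10 genes were called again, 9 higher and 1 lower, against 36.7% of all genes (15.4% higher, 21.2% lower). The states did not overlap for any of the 10, against 48.1% of all genes, and the median difference was 1.80 (0.01 over all genes). Both differentiation comparisons gave 10 calls in each of the 22 alternative settings tried.

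Bcat2 read 7.04, 7.16 and 6.96 in D1D2KO undifferentiated samples and 10.00, 9.83 and 9.47 in D1D2KO differentiated samples, a log2 difference of 2.71 ± 0.11 (SE, n = 3; adjusted p = 7.48e-12) or 6.54-fold. Bcat1 read 7.72, 7.67 and 7.59 against 6.62, 6.58 and 6.37, which leaves 45.4% of the undifferentiated signal (adjusted p = 1.41e-08). Bcat1 in D1D2KO differentiated cells held the lowest signals of that gene in any group. Bckdhb went from 6.56, 6.41 and 6.59 to 9.25, 9.25 and 9.12, 6.43-fold (adjusted p = 4.59e-13). Bckdha went from 6.88, 6.77 and 6.78 to 8.97, 8.66 and 8.29, 3.55-fold (adjusted p = 7.83e-09). These 2 partner subunits differed in spread, Bckdha having an SD of 0.34 in the differentiated group and Bckdhb one of 0.08. Dbt went from 7.53, 7.50 and 7.43 to 9.46, 9.43 and 8.89, 3.42-fold (adjusted p = 2.68e-08). Bckdk went from 8.02, 7.98 and 8.04 to 8.77, 8.61 and 8.53, 1.54-fold (adjusted p = 5.53e-06). As in WT, the kinase gene moved least.

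Mccc1 went from 7.25, 7.24 and 6.97 to 9.62, 9.61 and 9.37, 5.20-fold (adjusted p = 4.17e-12), and Mccc2 from 6.50, 6.56 and 6.45 to 7.98, 7.97 and 7.76, 2.64-fold (adjusted p = 3.65e-10). Pcca went from 7.76, 7.69 and 7.65 to 9.89, 9.88 and 9.56, 4.22-fold (adjusted p = 1.9e-10), and Pccb from 8.46, 8.41 and 8.39 to 10.04, 9.95 and 9.64, 2.75-fold (adjusted p = 5.43e-09). For these carboxylase genes, as for the other 6, the D1D2KO differentiated replicate 3 was the lowest of its group.

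**Figure D2:**
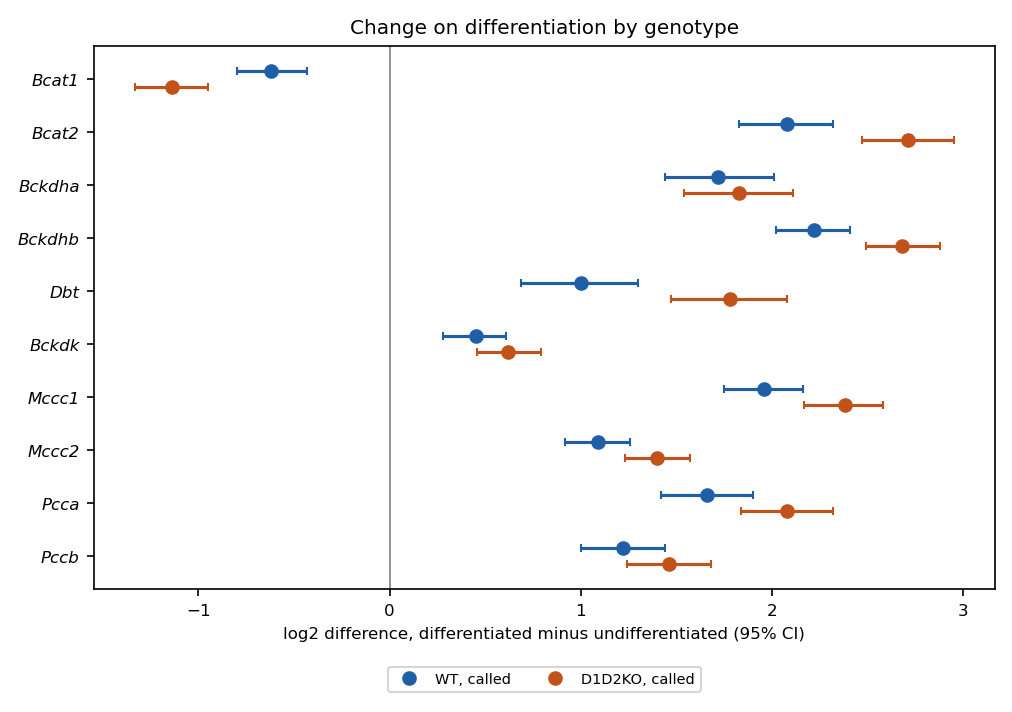
Log2 difference on differentiation (horizontal axis, with 95% confidence intervals) for each gene in WT and D1D2KO cells; filled points are calls. All 20 points are filled, and each D1D2KO point lies farther from 0 than its WT partner.

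The low replicate was examined gene by gene. The D1D2KO differentiated replicate 3 deviated from its group mean by -0.37 to -0.09 over the 10 genes, with a median of -0.19, while its median over all genes was 0. Replicate 1 was the highest of that group for 10 of 10, with a median deviation of 0.12. The adipocyte marker sum moved in the same sample, at 14.73, 14.73 and 14.53 (log2) in replicates 1, 2 and 3. The fibroblast marker sum was lowest in that sample too, at 14.30, 14.23 and 14.10. The part of these marker sums in the low pathway signals was not tested. Bcat1 was lowest in replicate 3 as well, so there its deviation had the sign of its change on differentiation, whereas for the 9 genes that rose the deviation had the opposite sign. Among WT differentiated samples, replicate 3 was the highest for 7 of 10 genes and replicate 2 the lowest for 6. In WT differentiated replicates 1, 2 and 3 the adipocyte marker sum was 14.27, 14.25 and 14.44, and the fibroblast sum 14.55, 14.43 and 14.47.

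**Figure D3:**
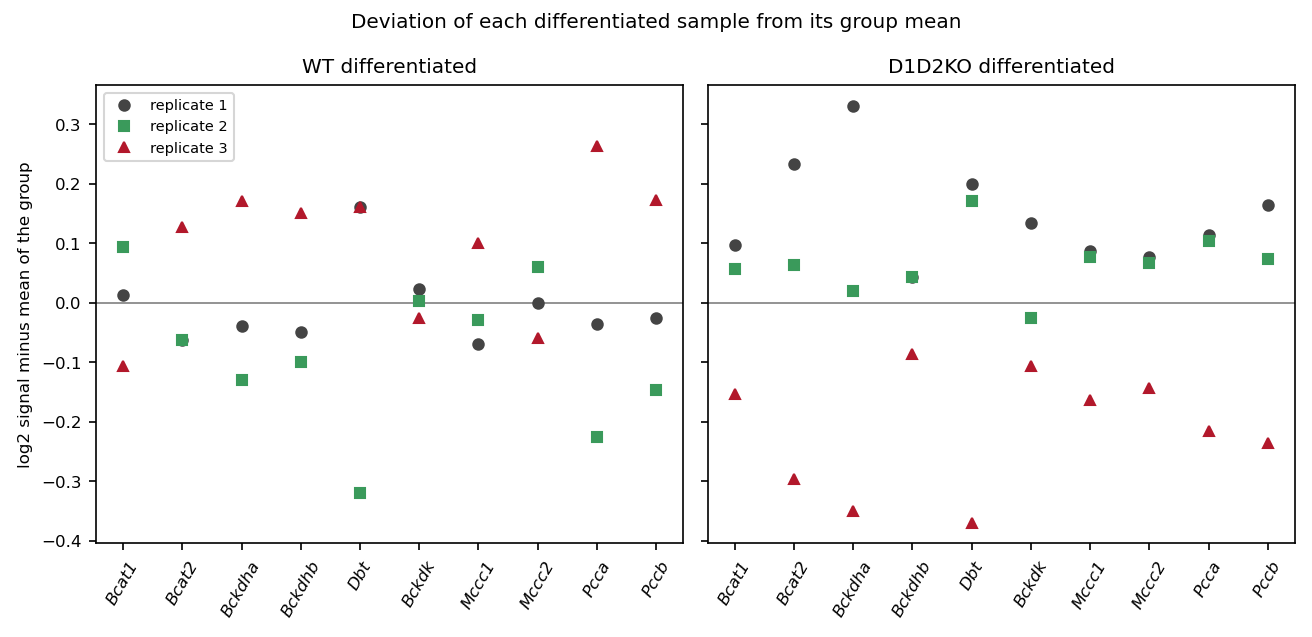
Log2 signal of each differentiated sample minus the mean of its group (vertical axis) for the 10 genes (horizontal axis), WT left and D1D2KO right. In D1D2KO, replicate 3 lies under 0 for every gene and replicate 1 above 0.

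The genotypes were next compared within each state. In undifferentiated cells 0 of the 10 genes were called by limma, against 8.02% of all genes, and 1 had an unadjusted p under 0.05, against 27.7% of all genes. That 1 was Bckdk, lower by 0.18 in D1D2KO (difference -0.18 ± 0.079 SE, unadjusted p = 0.0327, adjusted p = 0.144), and it passed the threshold with array weights (adjusted p = 0.0482). All 10 differences were negative, from -0.24 for Dbt to -0.02 for Bckdhb and Pccb, with a median of -0.14 against 0.02 over all genes. Over the 9969 genes above the median signal, which include all 10, the median was -0.076, so genes of higher signal leaned the same way. With quantile normalization 3 of the 10 turned positive. Samples of the genotypes did not overlap for 5 of the 10 (Dbt, Bckdk, Mccc1, Mccc2 and Pcca, all lower in D1D2KO), against 39.3% of all genes in either direction and 19.6% lower in D1D2KO. Markers moved in this comparison as well. Of 10 adipocyte markers 2 were called lower in D1D2KO, Fabp4 (-1.20, adjusted p = 8.83e-06) and Adipoq (-0.97, adjusted p = 8.43e-05), while the log2 of the summed signal of the list overlapped between the genotypes (10.59 to 10.68 in WT, 10.56 to 10.62 in D1D2KO). Of 6 skeletal muscle markers 1 was called higher and 1 lower, with 5 differences positive and 1 negative (median 0.24). Their summed signals were 9.64 to 9.80 in WT and 9.01 to 9.22 in D1D2KO. The part of these adipocyte and muscle markers in the member differences was not tested. Of all calls in undifferentiated cells 54.9% were higher in D1D2KO, but 32.3% once each array was centred on its median. Among genes above the median signal the share was 23.8%.

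In differentiated cells 4 of the 10 genes were called, Bcat2, Bckdhb and Dbt higher in D1D2KO and Bcat1 lower. Over all genes 13.7% were called, 6.25% higher and 7.42% lower. Bcat2 was 1.42-fold higher, with 9.47 to 10.00 in D1D2KO against 9.20 to 9.39 in WT (difference 0.50 ± 0.11 SE, n = 3 per group; adjusted p = 0.00981). Bckdhb was 1.36-fold higher, with 9.12 to 9.25 against 8.66 to 8.91 (0.44 ± 0.092; adjusted p = 0.00512). Bcat1 was at 66.2% of WT, with 6.37 to 6.62 against 7.01 to 7.21 (-0.60 ± 0.088; adjusted p = 0.00036). The calls of these 3 genes held in all 22 alternatives. Dbt, at 8.89 to 9.46 against 8.40 to 8.88, was 1.46-fold higher (0.54 ± 0.14; adjusted p = 0.0223), with only 0.01 between the highest WT and the lowest D1D2KO sample at 2 decimals. The genotypes did not overlap for these 4 of the 10 genes, against 30.9% of all genes. The call of Dbt ended without WT differentiated replicate 2 (0.38, adjusted p = 0.112), without D1D2KO differentiated replicate 1 (0.44, adjusted p = 0.084) or 2 (0.46, adjusted p = 0.0775), and with only the differentiated samples in the fit (adjusted p = 0.0685). The Dbt call also ended with the replicate block fitted on the differentiated samples alone (adjusted p = 0.0538), added after the data were seen.

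The other 6 were not called. Mccc1 differed by 0.22 (95% CI 0.02 to 0.43; adjusted p = 0.126), Pcca by 0.24 and Pccb by 0.22 (both adjusted p = 0.161) and Mccc2 by 0.16 (adjusted p = 0.174). Pcca passed the threshold without WT differentiated replicate 3 (0.37, adjusted p = 0.0344), and Pccb without D1D2KO differentiated replicate 3 (0.34, adjusted p = 0.0394). Mccc2 passed with quantile normalization (0.25, adjusted p = 0.0361) and with array weights (0.23, adjusted p = 0.046). Bckdha and Bckdk had point estimates near 0, at 0.01 (95% CI -0.28 to 0.29) and -0.01 (95% CI -0.17 to 0.16). The decarboxylase partners thus gave different values, Bckdhb with an interval of 0.25 to 0.64 and Bckdha with one that spans 0, although the 2 genes were not tested against each other. Of all calls in differentiated cells 45.7% were higher in D1D2KO, but 29.5% with each array centred and 23.2% among genes above the median signal.

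**Figure D4:**
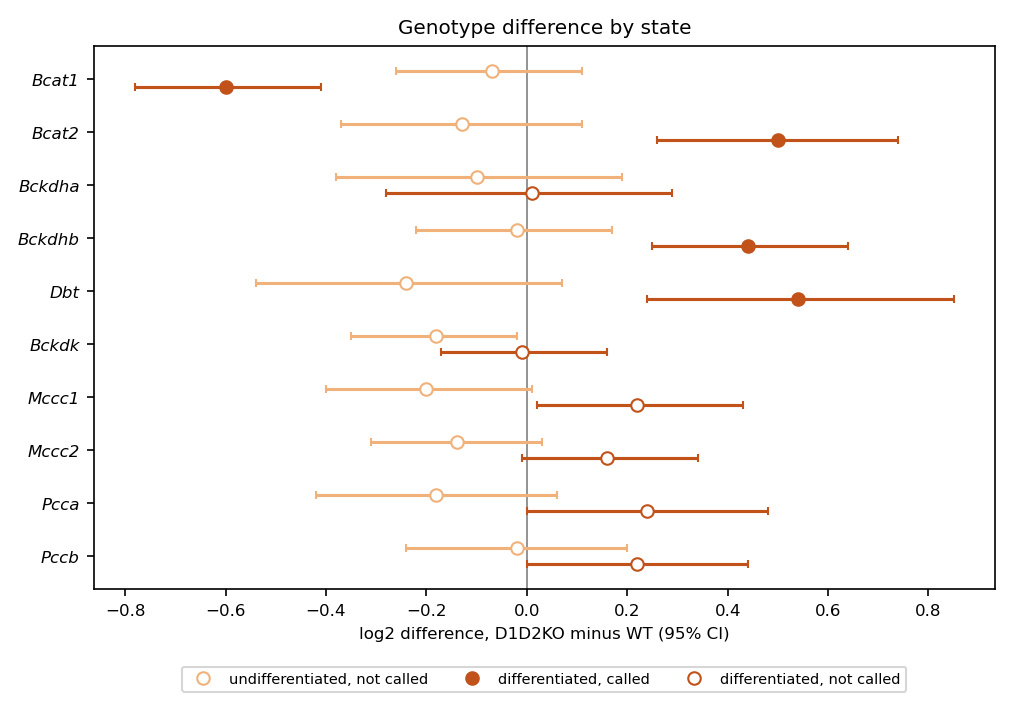
Log2 difference between the genotypes, D1D2KO minus WT (horizontal axis, with 95% confidence intervals), for each gene in undifferentiated and differentiated cells; filled points are calls. The 4 filled points are Bcat1 to the left of 0 and Bcat2, Bckdhb and Dbt to the right.

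Some marker lists moved with genotype in differentiated cells too, where 13.7% of all genes were called, 6.25% higher and 7.42% lower. Counts of 1 or 2 in lists this short say little against those shares. Of 10 adipocyte markers 6 were called higher in D1D2KO and 0 lower (median difference 0.35), and the log2 of their summed signal ran from 14.25 to 14.44 in WT and from 14.53 to 14.73 in D1D2KO, with no overlap. Of 10 fibroblast markers 4 were called lower (summed signal 14.43 to 14.55 in WT, 14.10 to 14.30 in D1D2KO). Of 9 cell cycle genes 5 were called lower in differentiated cells (11.06 to 11.38 against 10.84 to 10.90). In undifferentiated cells 4 of the 9 were called lower (11.60 to 11.73 against 11.27 to 11.38), where 8.02% of all genes were called. Of 10 macrophage markers 2 were called lower in differentiated D1D2KO cells (12.21 to 12.35 against 12.13 to 12.16). The largest shift in summed signal was that of 6 skeletal muscle markers, 9.75 to 9.90 in WT and 8.63 to 8.68 in D1D2KO. The list was mixed, with 4 differences positive and 2 negative (median 0.14), and with 1 called higher and 2 lower. Des, the gene of the filament protein desmin, was lower by 2.40 (difference -2.40, adjusted p = 3.43e-09). Of 6 epithelial markers 2 were called lower (8.13 to 8.21 against 7.94 to 7.97), and of 8 neural markers 2 (8.66 to 8.92 against 8.73 to 8.83, which overlap). Of 6 endothelial markers 1 was called higher (7.30 to 7.45 against 7.39 to 7.51, which overlap). The part of these shifts in the genotype differences of the 10 genes was not tested.

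Whether the differentiation response itself depended on genotype was tested as the difference between the 2 changes. Of the 10 genes 1 was called, Bcat1, on the lower side, against 1.46% of all genes in either direction and 0.712% lower. Its fall was 0.62 in WT and 1.14 in D1D2KO, a difference of -0.52 ± 0.12 (SE; 95% CI -0.79 to -0.26; adjusted p = 0.046 in limma's test). The call ended when any of 11 of the 12 samples was left out (adjusted p 0.0516 to 0.134), and held without WT differentiated replicate 3 (adjusted p = 0.0317). It also ended with centred arrays (adjusted p = 0.06) and with the replicate number as a block (adjusted p = 0.053). Without D1D2KO differentiated replicate 3 the difference was -0.45 (adjusted p = 0.064).

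Dbt and Bcat2 had larger differences that did not pass, at 0.78 (95% CI 0.35 to 1.21; adjusted p = 0.0747) and 0.63 (95% CI 0.29 to 0.98; adjusted p = 0.0668). Both passed without D1D2KO differentiated replicate 3, Dbt at 0.96 (adjusted p = 0.0109) and Bcat2 at 0.78 (adjusted p = 0.00787). With genes above the median signal the adjusted p was 0.0328 for Dbt and 0.0276 for Bcat2, and with array weights 0.00834 and 0.0134. Bcat2 also passed with trended and robust eBayes (adjusted p = 0.0286). Bckdhb stood at 0.47 (adjusted p = 0.0964) and passed without WT differentiated replicate 3 (0.54, adjusted p = 0.039), as did Bcat2 (0.70, adjusted p = 0.0473). Bckdhb also passed with genes above the median signal (adjusted p = 0.0363), trended and robust eBayes (adjusted p = 0.0498) and array weights (adjusted p = 0.039). Mccc2 passed with array weights (adjusted p = 0.0493). Of 20 alternatives, 5 gave a call for Bcat2, 3 for Dbt, 4 for Bckdhb and 1 for Mccc2. The remaining values ran from 0.42 for Mccc1 and Pcca to 0.10 for Bckdha (95% CI -0.30 to 0.51), and 7 of the 10 genes had an unadjusted p under 0.05, against 11.2% of all genes. Every one of the 10 changed more in D1D2KO than in WT, but so did 70.6% of the 5488 genes called in both genotypes in 1 direction. The adipocyte markers moved with this comparison too. Their differences in response were positive for 10 of 10, with a median of 0.53 against 0.36 for the 10 pathway genes. Of these markers 3 were called, Fabp4 (1.45, adjusted p = 0.000452), Adipoq (1.38, adjusted p = 0.000501) and Retn (0.62, adjusted p = 0.0484). For Fabp4 and Adipoq most of this lay in undifferentiated cells (-1.20 and -0.97). In differentiated cells the genotypes differed by 0.26 for Fabp4 (adjusted p = 0.145) and 0.41 for Adipoq (adjusted p = 0.0295). Adipoq averaged only 4.37 in D1D2KO undifferentiated samples, where the lower quartile of genes was at most 4.68. Of 10 fibroblast markers 1 was called and of 6 skeletal muscle markers 1, both towards a lower response in D1D2KO. The part of these markers in the member responses was not tested.

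**Figure D5:**
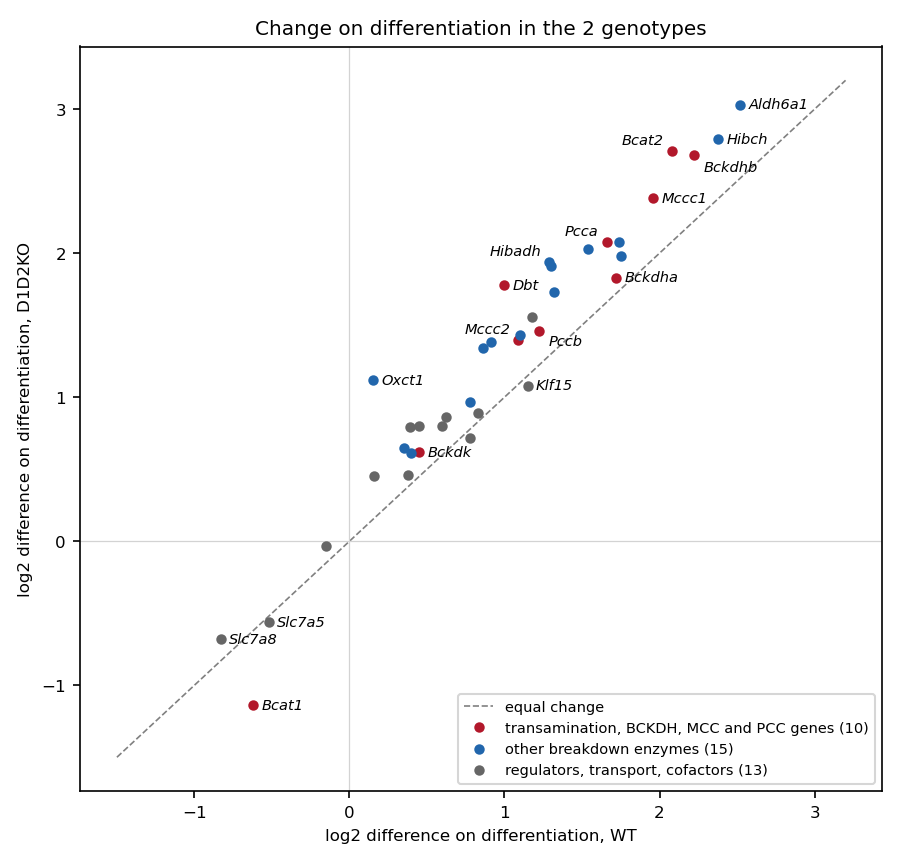
Log2 difference on differentiation in D1D2KO (vertical axis) against WT (horizontal axis) for the 10 genes, 15 other breakdown enzymes and 13 regulators, transporters and cofactor enzymes; the dashed line marks equal change. Most points with a rise lie above the line, Oxct1 farthest, and Bcat1 lies below it at the lower left.

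The rest of the pathway was read from a list of 16 other breakdown enzymes, 15 of them measured. In WT 14 of 15 rose and 0 fell (median 1.29), against 14.7% of all genes higher and 19.4% lower. In D1D2KO 15 of 15 rose (median 1.73), against 15.4% of all genes. The largest WT rises were those of the valine-route genes Aldh6a1, methylmalonate semialdehyde dehydrogenase (2.52; 5.72-fold), and Hibch, which hydrolyses hydroxyisobutyryl-CoA (2.38; 5.22-fold). Auh, the leucine-route hydratase, rose by 1.75 and Echs1, the short-chain enoyl-CoA hydratase, by 1.74. In differentiated cells 5 of the 15 were higher in D1D2KO and 0 lower, against 6.25% and 7.42% of all genes. They were Oxct1 (0.80, adjusted p = 8.28e-05), Acaa2, a mitochondrial thiolase (0.45, adjusted p = 0.00884), Dld, the lipoamide dehydrogenase shared by the ketoacid complexes (0.41, adjusted p = 0.0274), Hibadh, hydroxyisobutyrate dehydrogenase (0.39, adjusted p = 0.00565), and Hibch (0.36, adjusted p = 0.00671). The call of Dld ended without WT differentiated replicate 1 (adjusted p = 0.0586) or 2 (0.30, adjusted p = 0.125), without D1D2KO differentiated replicate 1 (adjusted p = 0.0604) or 2 (adjusted p = 0.0843), and with only the differentiated samples in the fit (adjusted p = 0.0694). With the replicate block fitted on the differentiated samples alone, added after the data were seen, the calls of Dld (adjusted p = 0.0776), Hibadh (adjusted p = 0.055) and Hibch (adjusted p = 0.0593) ended.

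Oxct1, which activates ketone bodies such as the acetoacetate that ends leucine breakdown, was the 1 enzyme not called in WT. It read 9.11, 9.17 and 9.20 in WT undifferentiated and 9.28, 9.18 and 9.48 in WT differentiated samples, which overlap (0.15, adjusted p = 0.277). In D1D2KO it read 9.11, 9.01 and 8.88 against 10.26, 10.17 and 9.92, a rise of 1.12 (adjusted p = 1.05e-07). The responses differed by 0.96 ± 0.14 (SE; adjusted p = 0.00271), a call kept whichever sample was left out. Hibadh rose by 1.29 in WT and 1.94 in D1D2KO, a difference of 0.65 ± 0.11 (adjusted p = 0.00839). That call was also kept whichever sample was left out, but with the mean of the gene's probe sets the rises were 0.55 and 1.13, the difference was 0.58 (adjusted p = 0.121) and the genotype difference in differentiated cells 0.21 (adjusted p = 0.234). Acat1, the acetoacetyl-CoA thiolase of the isoleucine route, rose by 0.86 and 1.34, a difference of 0.48 ± 0.12 (adjusted p = 0.0494) whose call ended when any of 10 of the 12 samples was left out. The call also ended with the replicate number as a block (adjusted p = 0.0685), with centred arrays (adjusted p = 0.06) and over all single-gene probe sets (adjusted p = 0.0516). It was kept without WT differentiated replicate 3 and without D1D2KO differentiated replicate 3. In undifferentiated cells 1 of the 15 was called, Mcee, the methylmalonyl-CoA epimerase, named after its value was seen (-0.27, adjusted p = 0.0482), against 8.02% of all genes. The Mcee call ended with quantile normalization (-0.18, adjusted p = 0.184), and in 9 of 12 runs that left out 1 sample (adjusted p 0.0533 to 0.215); it was kept without WT differentiated replicate 1 or 2 and without D1D2KO differentiated replicate 3.

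Of 13 regulators, transporters and cofactor enzymes, 9 rose and 2 fell in WT (median 0.45), and 10 rose and 2 fell in D1D2KO (median 0.79). Over all genes 14.7% rose and 19.4% fell in WT, and 15.4% rose and 21.2% fell in D1D2KO. Lias, which makes the lipoyl cofactor of the ketoacid complexes, rose by 1.18 in WT and 1.56 in D1D2KO. Klf15, a transcription factor known to act on amino acid breakdown genes, rose by 1.15 and 1.08, and Mmab, of the cobalamin pathway that serves methylmalonyl-CoA mutase, by 0.83 and 0.89. Slc7a8, a plasma membrane carrier of neutral amino acids, fell by 0.83 and 0.68. Between the genotypes in undifferentiated cells it was the 1 gene of this list called (-0.36, adjusted p = 0.0128), against 8.02% of all genes. That call ended with quantile normalization (-0.29, adjusted p = 0.0508), without WT undifferentiated replicate 2 (adjusted p = 0.0722) and without D1D2KO undifferentiated replicate 1 (adjusted p = 0.0589) or 3 (adjusted p = 0.0663). Slc3a2, the heavy chain that partners such carriers, was not called in WT (-0.15, adjusted p = 0.168) or D1D2KO (-0.03, adjusted p = 0.834). Mmadhc, also of the cobalamin pathway, was not called in WT (0.16, adjusted p = 0.164) and rose by 0.45 in D1D2KO (adjusted p = 0.000253). In differentiated cells 0 of the 13 were called between the genotypes by limma, against 13.7% of all genes, with 3 at an unadjusted p under 0.05, against 31.4% of all genes.

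Genes of related complexes and carboxylases, 13 in all, rose as well, 12 in WT (median 1.52) and 12 in D1D2KO (median 2.04), with 0 and 1 falling. The shares of all genes were 14.7% and 15.4% for rises, and 19.4% and 21.2% for falls. The largest WT rises were those of Pcx, pyruvate carboxylase (4.60), Acaca, acetyl-CoA carboxylase 1 (2.65), and Pdk4, a pyruvate dehydrogenase kinase (2.63). In D1D2KO they rose by 4.54, 2.59 and 2.59. Dlst, the acyltransferase core of 2-oxoglutarate dehydrogenase and thus the counterpart of Dbt, rose by 0.70 in WT and 1.22 in D1D2KO. Its responses differed by 0.52 ± 0.11 (adjusted p = 0.0322), a call that ended when any of 10 of the 12 samples was left out and was kept without replicate 3 of either differentiated group.

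The aminotransferase genes were also set beside all other genes by the root mean square difference of the 4 group means, each centred on its own mean, over 19928 non-member genes. Nearest to Bcat1 were Dbn1, which encodes the actin-binding drebrin (0.019), Sfxn3, a mitochondrial sideroflexin (0.028), and Heg1, a membrane protein of cell junctions (0.029), and 98 genes lay within 0.1. Dbn1 had group means of 8.65 and 8.08 in WT cells before and after differentiation and of 8.58 and 7.46 in D1D2KO cells, against 7.73, 7.12, 7.66 and 6.52 for Bcat1. Nearest to Bcat2 were Acadm, the medium-chain acyl-CoA dehydrogenase of fatty acid oxidation (0.047), Acp6, a lysophosphatidic acid phosphatase (0.051), and Glb1l2 (0.055), and 11 genes lay within 0.1. Acadm had group means of 9.24, 11.25, 9.02 and 11.69, against 7.19, 9.26, 7.06 and 9.77 for Bcat2. With 4 group means to match, such likeness is a description only.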

How the data were processed

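The deposited table held 35556 probe sets for 12 samples, 3 in each of 4 groups named by the sample titles. Its values, 1.15 to 14.17, were taken as log2 signals already normalized by the authors; their range is the basis for the log base, and the summary and normalization methods are not given in the sources used here. Column medians differed little and no scanner files or detection calls were used here, so nothing was normalized again. Genes were assigned through the platform annotation (21789 with 1 gene, 1621 with several, 12146 with none), and for genes with several single-gene probe sets the one with the highest mean was kept, leaving 19938 genes without a filter on low signal.

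All 12 samples entered 1 model of 4 group means in limma 3.58.1 (R 4.3.3; lmFit and eBayes), with 5 two-sided contrasts and Benjamini-Hochberg adjustment over 19938 genes; the script was tested on simulated data. The members and gene lists were chosen with earlier results of these data known. Named genes besides the members were, from the lists, up to 4 called genes with the largest WT change, up to 2 uncalled genes with the highest signal, and those called between genotypes in differentiated cells or in the difference of responses. From the related complexes they were the 3 largest WT changes and those called in the difference of responses. The markers Fabp4, Adipoq, Retn and Des are named with values outside this rule and were chosen after their values were seen. Equal replicate numbers were taken to pair samples only in D1D2KO differentiation, where deviations of equal numbers correlated at 0.101 to 0.176 (unequal, -0.147 to 0.0522). The rule was that each such correlation exceed 0.1, which the lowest barely did, so the pairing is not established. The main model did not use it, and the replicate block was fitted only as an alternative. Alternatives changed the scaling (centred arrays, quantile normalization), the features (genes above the median signal, averaged or all single-gene probe sets), the samples (only the compared groups, or 1 sample removed) and the model (array weights, trended and robust eBayes, a block for the replicate number). The block fitted within the groups compared was added after the data had been seen.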

Additional observations from a re-analysis of the deposited data

Results flagged for a closer look

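A tested difference between the genotypes' differentiation responses singled out 5 genes. The log2 differences, D1D2KO minus WT, were -0.52 for Bcat1, 0.65 for Hibadh, 0.48 for Acat1, 0.96 for Oxct1 and 0.52 for Dlst. With each sample left out in turn, Oxct1 and Hibadh kept their calls in 12 of 12 runs, Acat1 and Dlst in 2 of 12 and Bcat1 in 1 of 12. Groups of 3 samples were not tested for outlying samples.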

How the results depend on the processing

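Of 1080 member differences recomputed under alternatives, 1044 kept their side of the threshold, 18 lost the call and 18 gained it. Among those called in either fit, 0 reversed direction. A change of sign between uncalled results was counted as kept. For other named genes the figures were 2268 kept, 56 lost, 52 gained and 0 reversed of 2376. Counts of calls moved by over 1.5 times in 41 of 216 cases. For the 10 members, the undifferentiated genotype count went from 0 to 1 with array weights. The response count went from 1 to 0 with centring or the replicate block, 4 with genes above the median signal, 3 with trended and robust eBayes, 5 with array weights and 0 to 3 with 1 sample left out. For the 28 other breakdown enzymes and regulators, the undifferentiated genotype count of 2 became 0 with quantile normalization, 4 with genes above the median signal, with trended and robust eBayes and with the replicate block fitted within the groups (added after the data were seen), 9 with array weights and 0 to 3 with 1 sample left out. Their differentiated genotype count of 5 became 9 with quantile normalization, genes above the median signal or array weights, 8 with trended and robust eBayes, 2 with the block within the groups and 4 to 8 with 1 sample left out. Their response count of 3 became 7 with genes above the median signal or array weights, 6 with trended and robust eBayes and 2 to 8 with 1 sample left out, 8 being without D1D2KO differentiated replicate 3. With genes above the median signal, 9969 genes were tested. The cause of these shifts was not tested. Where equal replicate numbers were taken to pair samples, in D1D2KO differentiation, the block left 10 of 10 members called and changed the call of no other named gene there. The 3 arrays in each group limit the precision.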
